A study of Mus musculus with 8 samples.

Results

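Integrins, syndecans and the proteins of focal adhesions, 34 genes in all, were followed through the first days of mouse cell reprogramming with and without cyclosporin A. The genes were a fixed list of 19 integrin subunits, 4 syndecans and 11 focal adhesion proteins. The list was chosen with earlier results of these data known, so the shares of members called are descriptive only. Each gene was read from the array probe set that carried its symbol alone and had the highest mean over the 8 arrays. Of 18193 genes with such a probe set, 31 were on the list; 3 listed genes (Itga11, Fermt1 and Ptk2) were not analysed here, because no probe set named only them. Of the 31, 28 lay above a filter on dim probe sets and were tested among 12529 genes, and Itga1, Itgb2 and Itgb7 lay below it.

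The cells, on a C57BL/6 background, carried a secondary system in which doxycycline turns on the factors Oct4, Sox2, Klf4 and c-Myc (OSKM), and the labels do not name the cell type they started from. All 4 groups received doxycycline, at a dose the labels write as 2 mg/ml, and grew in medium for mouse embryonic stem cells (15% serum, leukemia inhibitory factor at 100 units/ml). A pair of groups also received cyclosporin A (CSA, an inhibitor of the phosphatase calcineurin; the design text writes 10 mM) and the other pair, the controls, received DMSO, and each was collected on day 3 or day 6 of reprogramming. Both dose units are printed as written and may stand for micro units. Each group held 2 arrays, which the design text calls independent biological repeats, so n = 2 for every group mean below.

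Integrins are the cell's main receptors for the extracellular matrix. Each is a pair of an alpha and a beta subunit, and the pairing sets the ligand: collagen, laminin, or proteins with the RGD (arginine-glycine-aspartate) sequence such as fibronectin and vitronectin. Syndecans are heparan sulfate proteoglycans that bind many of the same matrix proteins beside the integrins. Inside the cell, talin and kindlin bind the beta tail and switch the receptor on, and vinculin, ILK, parvin, paxillin, tensin and zyxin tie it to actin in the focal adhesion, a structure that is prominent in spread fibroblasts and is rebuilt when cells take on an epithelial form.

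Values are deposited log2 microarray signals, in which 1 unit is a doubling, and levels are compared only within a gene. Signals of arrays of 1 group correlated at 0.968 to 0.974 over the tested probe sets. The median signal of the tested probe sets was 8.22 to 8.24 on the 4 day 3 arrays and 8.44 to 8.47 on the 4 day 6 arrays, a shift that bears on comparisons between days. All 12 epithelial and all 12 fibroblast markers lay above the filter; of 12 pluripotency markers Nanog, Zfp42, Dppa3, Dppa4, Tdgf1 and Sox2 lay below it, as did Ptprc, the pan-leukocyte marker, and 4 other leukocyte markers. These are bulk RNA values, in which fewer cells of a type and less RNA per cell cannot be told apart.

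CSA against DMSO at day 3 asks which adhesion genes differed early in reprogramming between cells given CSA and cells given DMSO. Itgb4, Itgb5, Sdc3 and Tns1 were higher with CSA, by 1.34-fold to 1.70-fold, and no tested member was lower past the threshold, an adjusted p under 0.05 in limma over 27022 probe sets. The 4 calls are 14.3% of the 28 tested members, near the 12.7% of all genes tested that were called here in either direction; of all genes tested 7.14% were called higher and 5.52% lower. The median difference over the members was 0.03, against -0.0042 over all genes tested.

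Itgb4, the beta subunit that pairs with alpha 6 in hemidesmosomes, read 11.77 and 11.64 on the DMSO arrays and 12.06 and 12.29 on the CSA arrays at day 3. Both CSA arrays lay above both DMSO arrays. The log2 difference was 0.47 ± 0.09 (limma's moderated standard error, as for each ± below; adjusted p = 0.00554).

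Itgb5, which pairs with alpha v as a vitronectin receptor, gave 10.84 and 10.98 with DMSO and 11.30 and 11.36 with CSA, again without overlap. The difference was 0.42 ± 0.08 (adjusted p = 0.00615), and all 4 probe sets of Itgb5 were called higher, by 0.36 to 0.60.

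Sdc3, a syndecan with a long extracellular domain, read 8.64 and 8.31 with DMSO and 9.23 and 9.26 with CSA. The CSA arrays lay close together and above both DMSO arrays, and the difference of 0.77 ± 0.14 (adjusted p = 0.00667) was the largest of the 4. A further Sdc3 probe set was also higher, by 0.94 (adjusted p = 0.0464), and the remaining one was not called, at 0.15 (adjusted p = 0.881).

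Tns1, tensin 1, which links integrin tails to actin, read 10.02 and 9.98 with DMSO and 10.38 and 10.48 with CSA. The groups did not overlap, and the difference was 0.44 ± 0.09 (adjusted p = 0.0100). Its other probe sets were not called, at 0.33 (adjusted p = 0.0917) and -0.19 (adjusted p = 0.341).

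None of the 4 day 3 calls was made when CSA day 3 replicate 2 was left out (adjusted p = 0.0676 for Itgb4, 0.0638 for Itgb5, 0.0565 for Sdc3 and 0.0974 for Tns1), nor when the variance prior had no intensity trend (0.113, 0.100, 0.0582 and 0.0890 in the same order). With a gene's probe sets averaged, in place of the brightest one, Sdc3 gave 0.62 (adjusted p = 0.0569) and Tns1 0.19 (adjusted p = 0.173). Markers moved between the same arrays: of 12 epithelial markers 6 were higher and 1 lower with CSA at day 3, with a summed linear signal of 32895 to 32923 on the DMSO arrays and 39115 to 41886 on the CSA arrays. Of 10 keratinocyte markers 7 were tested and 3 were higher, with sums of 8711 to 8911 against 13586 to 14229 and with Krt5, Krt15 and Trp63 below the filter; the part of these markers in the results was not tested.

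**Figure D1:**
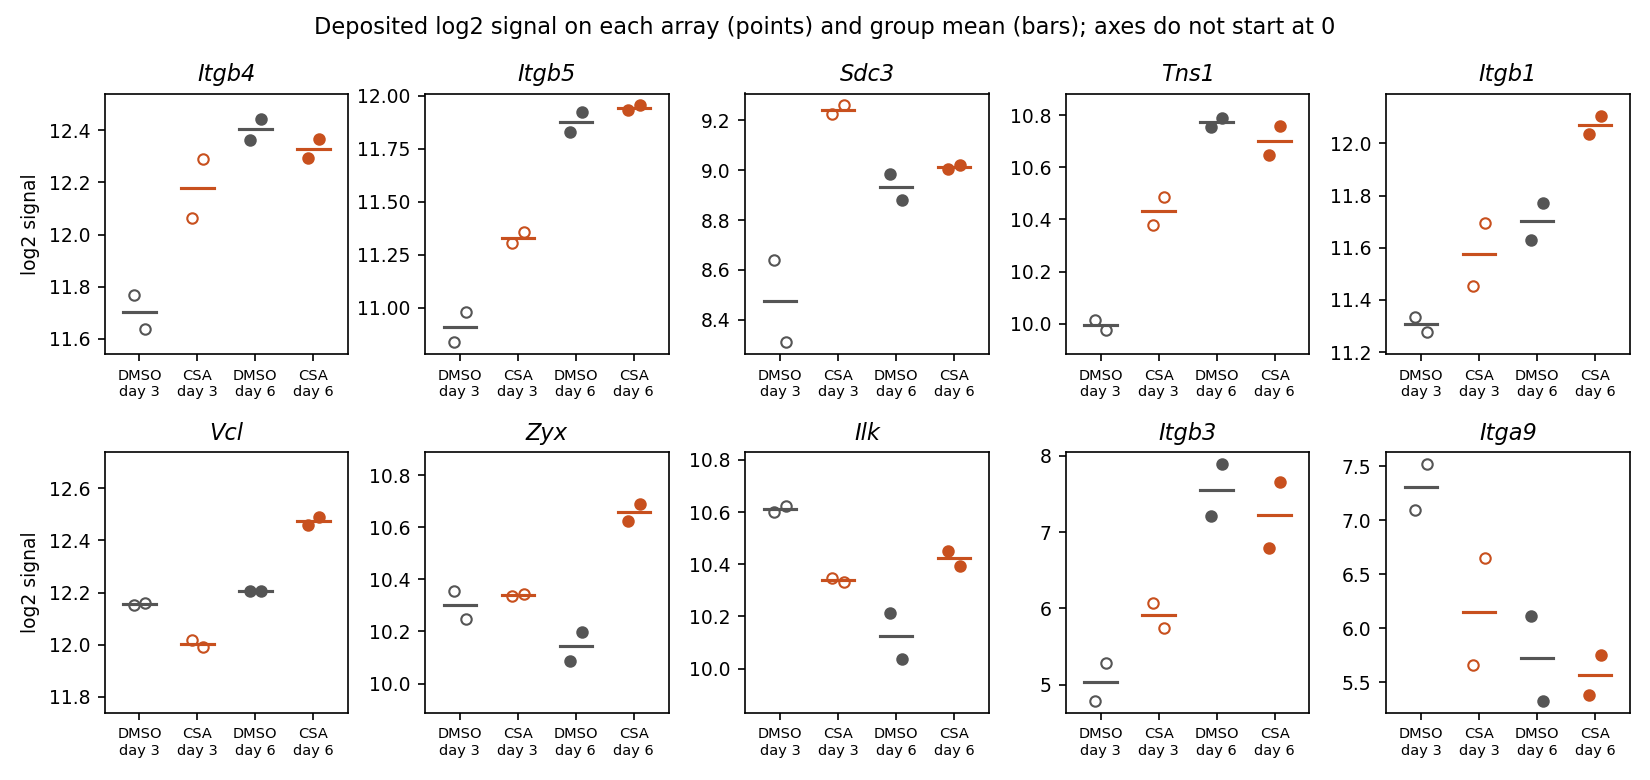
Deposited log2 signal of the members that the results turn on, with a panel for each gene, the 4 groups on the horizontal axis, points for the 2 arrays of a group and a bar for their mean; the vertical axes do not start at 0. Itgb4, Itgb5, Sdc3 and Tns1 have both CSA arrays above both DMSO arrays at day 3, and Itgb1, Vcl and Zyx have them above at day 6.

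By ligand class, the remaining integrin subunits gave no call at day 3. Of the 4 laminin receptor genes the other 3 lay between -0.19 (Itga7) and 0.20 (Itga6, the usual partner of Itgb4, adjusted p = 0.293). Among the 7 genes of RGD receptors the other 6 ran from -0.52 (Itga8) to 0.87 (Itgb3, a vitronectin receptor subunit, adjusted p = 0.249). Standard errors were wide for the dimmer genes. Itgav, the alpha subunit that Itgb5 needs, differed by -0.02 ± 0.08, with an adjusted p of 0.902. Itga2, the collagen receptor subunit above the filter, gave 0.47 ± 0.49, and Itgb1, which pairs with most alpha subunits, gave 0.27 ± 0.09 (adjusted p = 0.0932).

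Itga9, a receptor subunit for tenascin C and osteopontin, read 7.09 and 7.52 with DMSO and 5.66 and 6.65 with CSA at day 3. The groups did not overlap, but the CSA arrays differed by about 1 unit, and the difference of -1.15 ± 0.48 was not called (adjusted p = 0.168).

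Sdc1, Sdc2 and Sdc4 differed by -0.07, -0.10 and 0.24 at day 3, and none was called. Talin 1, talin 2 and kindlin 2 (Fermt2), which bind the integrin tail, and vinculin, which binds talin, gave values from -0.25 to -0.10. All 4 of these were lower on both CSA arrays than on both DMSO arrays. At day 3 the groups did not overlap, in either direction, for 21 of the 28 members and for 56.5% of all genes tested. None of the 4 was called by limma, and 2 had an unadjusted p under 0.05. The adaptors Parva, Pxn and Zyx gave 0.01, 0.07 and 0.04, and Ilk gave -0.27 ± 0.09 (adjusted p = 0.0935).

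CSA against DMSO at day 6 asks the same of a later stage, and different members passed. Zyx, Itgb1 and Vcl were higher with CSA, by 1.20-fold to 1.43-fold, and again no tested member was lower past the threshold. The 3 calls are 10.7% of the tested members, against 12.5% of all genes tested (6.41% higher and 6.11% lower), and the median difference was -0.07 over the members and -0.012 over all genes tested. No member was called at both days, 4 were called at day 3 and 3 at day 6, and 16 of the 28 had the same sign at both.

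Zyx, zyxin, which is recruited to focal adhesions and stress fibres under tension, read 10.09 and 10.20 with DMSO and 10.63 and 10.69 with CSA at day 6. The CSA arrays were the highest of all 8 for this gene. The difference was 0.51 ± 0.09 (adjusted p = 0.00473), and the call was still made when each of the 4 day 6 arrays was left out in turn.

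Itgb1 gave 11.63 and 11.77 with DMSO and 12.03 and 12.10 with CSA. Both CSA arrays lay above every other array, and at day 6 the groups did not overlap for 16 of the 28 members and for 58.1% of all genes tested. The difference was 0.37 ± 0.09 (adjusted p = 0.0268). A second bright Itgb1 probe set was higher too, by 0.30 (adjusted p = 0.0333), and a dimmer one was not called, at -0.10 (adjusted p = 0.898).

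Vcl, vinculin, the talin- and actin-binding protein that reinforces loaded adhesions, read 12.21 on both DMSO arrays and 12.46 and 12.49 on the CSA arrays. The step was small and the arrays of each group lay close together. The difference was 0.27 ± 0.06 (adjusted p = 0.0193), and the second Vcl probe set gave 0.44, which was not called (adjusted p = 0.258).

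Leaving out any 1 of the 4 day 6 arrays ended the calls of Itgb1 and Vcl. The adjusted p was 0.0643 and 0.134 for Itgb1 without CSA replicates 1 and 2, and 0.183 and 0.0591 without DMSO replicates 1 and 2; for Vcl it was 0.0536, 0.0868, 0.0999 and 0.106 in the same order. The 3 calls were not made without the intensity trend (adjusted p = 0.0611 for Zyx, 0.174 for Itgb1 and 0.158 for Vcl) or with a gene's probe sets averaged (differences of 0.25, 0.19 and 0.35 with adjusted p of 0.656, 0.351 and 0.0561). Some members were called lower under alternatives: Itga6 (-0.37, adjusted p = 0.0313) and Tln2 (-0.58, adjusted p = 0.0485) without CSA replicate 1, where Sdc2 was called higher (0.49, adjusted p = 0.0485), and Sdc1 (-0.35, adjusted p = 0.0367) without _s_at and _x_at probe sets, which can match several transcripts. With no filter Itgb7, which lies below it, was also called lower (-4.01, adjusted p = 0.0288). Ilk was called higher after quantile normalization (0.34, adjusted p = 0.0404), with arrays centred on their median (0.32, adjusted p = 0.0498), with probe sets averaged (0.0408) and with a stricter filter (0.0451). Beside these calls, 4 of 8 smooth muscle markers were tested and all 4 were higher with CSA at day 6, with sums of 6682 to 7155 on the DMSO arrays and 11979 to 12431 on the CSA arrays and with Myh11, Cnn1, Lmod1 and Myocd below the filter. Of the 12 epithelial markers 7 were lower and none was called higher, with sums of 54444 to 56793 against 40961 to 41200. Of the 7 tested keratinocyte markers 3 were higher and none was called lower, with sums of 11852 to 12576 against 13602 to 14064. The part of these lists in the results was not tested.

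At day 6 the 4 genes called at day 3 gave differences near 0. Itgb4 read 12.36 and 12.44 with DMSO and 12.29 and 12.37 with CSA, which overlap. For Itgb5 the values were 11.83 and 11.93 against 11.93 and 11.96, and for Sdc3 8.98 and 8.88 against 9.01 and 9.02. Tns1 gave 10.76 and 10.79 against 10.65 and 10.76. The largest of these differences was 0.08 (Sdc3, adjusted p = 0.797).

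Among the other tested integrin subunits the day 6 differences ran from -0.75 (Itgb6) to 0.76 (Itgb8), and none was called. Itga7, the muscle laminin receptor subunit, gave 0.71 ± 0.33 (adjusted p = 0.224), and Itga3 and Itga6 gave -0.26 and -0.19. The syndecans lay between -0.29 (Sdc1) and 0.30 (Sdc2); a second bright Sdc1 probe set was called lower, by -0.35 (adjusted p = 0.0406). Talin 1 and talin 2 lay on opposite sides of 0, at 0.26 and -0.40 (adjusted p = 0.163 and 0.110).

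**Figure D2:**
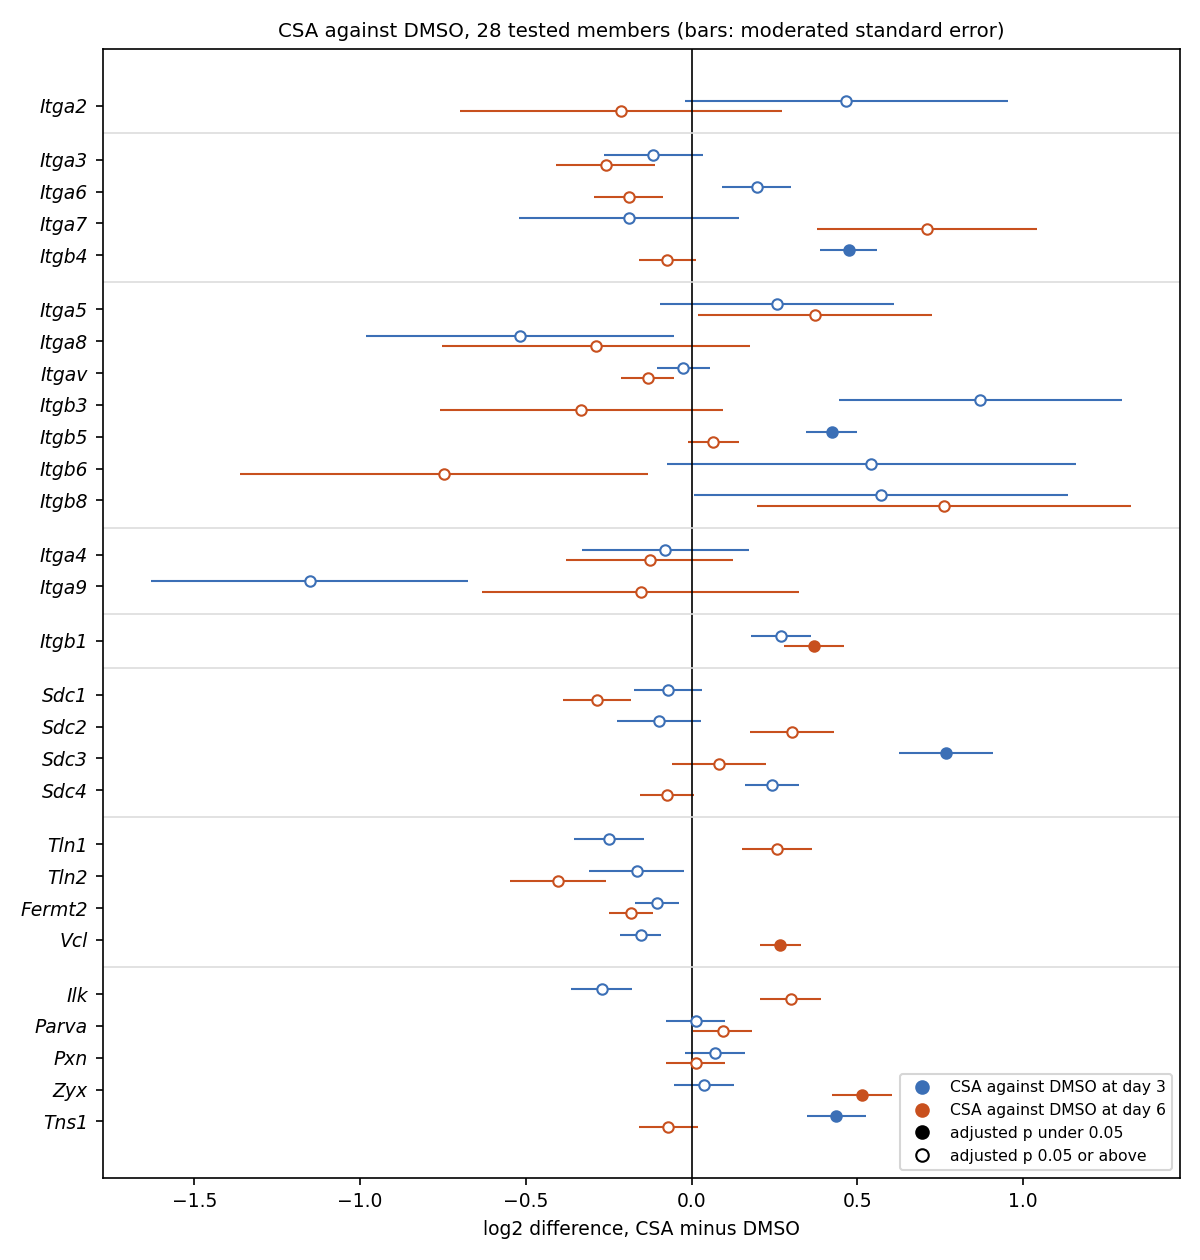
Log2 difference, CSA minus DMSO, for the 28 tested members at day 3 and day 6, with horizontal bars for the moderated standard error, filled points for an adjusted p under 0.05 and open points otherwise. The 4 filled day 3 points (Itgb4, Itgb5, Sdc3 and Tns1) and the 3 filled day 6 points (Itgb1, Vcl and Zyx) all lie to the right of 0, and no gene has both points filled.

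Whether the CSA difference itself changed between days was tested as the day 6 difference minus the day 3 difference. Itgb4 and Tns1 had a smaller CSA difference at day 6 than at day 3, and Vcl and Ilk a larger one. These 4 calls, 2 in each direction, are 14.3% of the tested members, against 5.79% of all genes tested (2.36% upward and 3.43% downward). For Itgb5, Sdc3 and Zyx, each called at 1 of the days, the change was -0.36, -0.69 and 0.48 and was not called (adjusted p = 0.0996, 0.0875 and 0.0635), and for Itgb1 it was 0.10 (adjusted p = 0.738). The change was called for Zyx after quantile normalization (0.56, adjusted p = 0.0385) and with a stricter filter (0.0422), for Sdc3 without DMSO day 3 replicate 1 (-0.85, adjusted p = 0.0439), for Itga6 without CSA day 6 replicate 1 (-0.57, adjusted p = 0.0275) and for Itgb7 with no filter (-5.86, adjusted p = 0.0444).

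The Itgb4 difference changed by -0.55 ± 0.12 (adjusted p = 0.0303), from 0.47 at day 3 to -0.07 at day 6. Tns1 changed by -0.51 ± 0.12 (adjusted p = 0.0455), from 0.44 to -0.07. Vcl changed by 0.42 ± 0.09 (adjusted p = 0.0229). Its day 3 arrays read 12.15 and 12.16 with DMSO and 12.02 and 11.99 with CSA, so on this probe set CSA was the lower group at day 3 and the higher at day 6. The day 3 difference was not called (-0.15, adjusted p = 0.154). The second Vcl probe set gave 0.22 at day 3 (adjusted p = 0.621) and a change of 0.22 (adjusted p = 0.763), neither of them called.

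Ilk, integrin-linked kinase, the scaffold that joins kindlin and parvin at the beta tail, had the largest change of the 4, at 0.57 ± 0.13 (adjusted p = 0.0342). It read 10.60 and 10.62 with DMSO and 10.35 and 10.33 with CSA at day 3, and 10.21 and 10.04 with DMSO and 10.45 and 10.39 with CSA at day 6. The groups did not overlap at either day and changed places, although neither day's difference was called (-0.27, adjusted p = 0.0935, and 0.30, adjusted p = 0.0665).

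Marker lists moved with this contrast too: all 4 tested smooth muscle markers were called upward (0.74 to 3.10) and 4 of the 12 epithelial markers downward, and their part in the result was not tested. For the 4 members the calls changed with the setting. Without the intensity trend none was made (adjusted p = 0.222 for Itgb4, 0.189 for Tns1, 0.2002 for Vcl and 0.174 for Ilk), and with a gene's probe sets averaged Vcl gave 0.32 (adjusted p = 0.254) and Tns1 -0.33 (adjusted p = 0.152). Tns1 was not called on leaving out any 1 of the 8 arrays (adjusted p = 0.0655 to 0.163), with no filter (0.0586), after quantile normalization (0.0738) or with arrays centred on their median (0.0637). Vcl was not called without CSA day 3 replicate 1 or 2 (0.0821 and 0.0948), CSA day 6 replicate 2 (0.0617) or DMSO day 6 replicate 1 or 2 (0.0786 and 0.0819). Itgb4 was called without DMSO day 3 replicate 1 and without CSA day 3 replicate 1, and gave 0.0591 to 0.118 without each of the other 6 arrays. Ilk was called without DMSO day 6 replicate 1, and gave 0.0602 to 0.130 without each of the other 7.

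Promoter sequences are shown for called members, of which Itgb5, Sdc3 and Tns1 were called at day 3 and Zyx at day 6. RefSeq windows of GRCm38.p6, from 250 bases before to 50 bases after a gene's start, were found for 24 of the 34 members and for 6 of the 7 genes called for CSA; Itgb4 had no entry. The 4 windows with the smallest p are printed 5′ to 3′ along the gene, with capitals marking matches, on either strand, to AP-1 (TGANTCA), TEAD (GGAATG), the core of the calcineurin-dependent NFAT factors (GGAAA), SP1 (GGGCGG) and the CArG box of serum response factor. They are Zyx at chr6:42349578-42349877 (plus strand), Itgb5 at chr16:33829415-33829714 (plus), Sdc3 at chr4:130792287-130792586 (plus) and Tns1 at chr1:74124499-74124798 (minus).
Zyx: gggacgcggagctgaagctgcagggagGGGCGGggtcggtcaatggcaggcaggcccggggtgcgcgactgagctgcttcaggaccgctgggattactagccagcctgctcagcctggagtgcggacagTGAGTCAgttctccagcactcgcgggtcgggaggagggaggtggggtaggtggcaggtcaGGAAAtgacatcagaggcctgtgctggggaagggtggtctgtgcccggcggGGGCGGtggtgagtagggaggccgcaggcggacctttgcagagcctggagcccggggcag
Itgb5: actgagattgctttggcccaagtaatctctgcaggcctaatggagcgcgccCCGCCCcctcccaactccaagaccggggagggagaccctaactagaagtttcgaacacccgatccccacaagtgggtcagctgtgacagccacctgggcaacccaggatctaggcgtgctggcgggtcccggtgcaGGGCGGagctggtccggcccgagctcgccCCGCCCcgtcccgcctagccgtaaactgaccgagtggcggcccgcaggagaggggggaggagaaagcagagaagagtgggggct
Sdc3: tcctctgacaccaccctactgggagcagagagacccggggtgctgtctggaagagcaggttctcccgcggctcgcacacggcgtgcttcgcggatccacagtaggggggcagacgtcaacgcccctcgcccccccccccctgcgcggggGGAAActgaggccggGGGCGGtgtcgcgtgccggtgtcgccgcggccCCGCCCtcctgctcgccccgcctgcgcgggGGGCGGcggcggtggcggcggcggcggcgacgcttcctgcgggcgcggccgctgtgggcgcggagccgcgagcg
Tns1: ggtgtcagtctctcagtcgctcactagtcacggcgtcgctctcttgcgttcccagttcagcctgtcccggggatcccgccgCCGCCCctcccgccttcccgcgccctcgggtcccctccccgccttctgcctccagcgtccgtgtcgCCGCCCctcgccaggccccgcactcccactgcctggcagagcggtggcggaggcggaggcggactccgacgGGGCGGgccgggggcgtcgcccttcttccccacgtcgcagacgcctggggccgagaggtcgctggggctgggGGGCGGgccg
In these windows the Zyx promoter held 1 AP-1 match, 121 bases before the start, and 1 NFAT core, 61 bases before it. The Sdc3 promoter held 1 NFAT core, 101 bases before the start, and those of Itgb5 and Tns1 held none.

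All 4 printed windows held SP1 matches, 2 in Zyx, 3 each in Itgb5 and Sdc3 and 4 in Tns1. Of the 2 windows not printed, Vcl held a CArG box, 227 bases before its start, and 1 TEAD match, and Itgb1 held 1 TEAD match and 2 NFAT cores. Over 32851 RefSeq promoter windows of the same length the shares with a match were 1.63% for the CArG box, 7.81% for AP-1, 14.7% for TEAD, 61.3% for the NFAT core and 35.7% for SP1. No matches of different motifs overlapped in the printed windows, and a match describes letters only.

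On the deposited scale most of the members called between day 3 and day 6 were higher at day 6, in DMSO and in CSA. In DMSO 12 members were higher and 2 lower at day 6, which is 14 of the 28 tested members, against 45.7% of all genes tested (26.1% higher and 19.6% lower). In CSA 12 were higher and 1 lower, 46.4% against 36.1% (20.2% higher and 15.8% lower). The median change was 0.37 over the members in DMSO and 0.37 in CSA, against 0.078 and 0.081 over all genes tested.

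These splits differed with how the arrays were scaled. The day 6 arrays had the higher medians. The mean linear signal of all probe sets, with 2% trimmed at each end, was 496.8 to 497.5 on the 8 arrays. With each array centred on its median, an alternative chosen after seeing the data, 7 members were higher and 7 lower in DMSO, and 7 and 4 in CSA; after quantile normalization the counts were 13 and 5 in DMSO and 12 and 1 in CSA. Over all probe sets called, the share that was higher was 58.6%, 48.4% and 34.9% in DMSO with deposited, quantile normalized and centred values, and 58.6%, 49.0% and 31.2% in CSA. Centring put the median of all genes at -0.17 in DMSO and -0.13 in CSA. Vcl in DMSO was called in opposite directions by the alternatives, at 0.23 with quantile normalized and -0.20 with centred values, and Tln1, Tln2 and Zyx were called lower in DMSO under both. Under all 3 scalings 7 members rose and 2 fell in DMSO, and 7 rose and 1 fell in CSA.

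Among the tested members Itgb3 had the largest measured rise in DMSO. It read 4.79 and 5.29 at day 3 and 7.22 and 7.89 at day 6, so both day 6 arrays lay far above both day 3 arrays. The change was 2.52 ± 0.43 (adjusted p = 0.000663), a 5.72-fold difference, and it was called under each of the 14 alternative fits that tested it. The stricter filter left Itgb3 out as too dim. Both DMSO day 3 values lay below the main filter level of 5.37, so the day 3 level was not shown to be above background and the fold is against a dim reading. In CSA, where day 3 already read 6.07 and 5.74 and day 6 read 6.79 and 7.66, it was 1.31 ± 0.43 (adjusted p = 0.0369). That call was lost after quantile normalization (0.98, adjusted p = 0.116), with centred arrays (adjusted p = 0.0698), with no filter (0.0721), without the trend (0.0632), and without CSA day 3 replicate 1 or 2 (0.0785 and 0.154) or CSA day 6 replicate 2 (0.88, adjusted p = 0.264).

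Itgb5 rose by 0.97 ± 0.08 in DMSO (adjusted p = 3.39e-06) and by 0.61 ± 0.08 in CSA (adjusted p = 0.000167), from the levels given above. Both calls were made under all 15 alternatives, as were those of Sdc4 (0.85 ± 0.08 in DMSO and 0.53 ± 0.08 in CSA), the syndecan found in focal adhesions. With centred arrays the rises in CSA were 0.40 for Itgb5 and 0.32 for Sdc4. Sdc4 read 10.83 and 10.68 with DMSO at day 3 and 11.56 and 11.64 at day 6, without overlap.

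Itga3, a laminin receptor subunit of epithelia, rose by 0.89 ± 0.15 in DMSO and 0.74 ± 0.15 in CSA, and Parva, alpha-parvin, an actin-binding partner of ILK, by 0.66 ± 0.09 and 0.74 ± 0.09. With its probe sets averaged the Itga3 rise in CSA was 0.39 (adjusted p = 0.347). With centred arrays Parva rose by 0.41 in DMSO. Without _s_at and _x_at probe sets the Parva rise in DMSO was 0.22 (adjusted p = 0.170), and that in CSA 0.37 (adjusted p = 0.0384).

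Some members were called under all 3 scalings with 1 treatment only. In DMSO these were, beside Itgb3 and Itga9, Itgb4 (0.70 ± 0.09), Tns1 (0.78 ± 0.09) and Ilk (-0.49 ± 0.09), each called under all 15 alternatives. In CSA they were, beside Tln2, Itgb1 (0.50 ± 0.09), Vcl (0.47 ± 0.06) and Sdc2 (0.72 ± 0.13), likewise. Sdc2 also rose in DMSO, by 0.32, which was not called in the main fit. Several alternatives called this rise: a stricter filter (adjusted p = 0.0450), a floor of 5 (0.049997) and a replicate block (0.0172). So did the fit on the DMSO arrays alone (0.0470) and the mean of the Sdc2 probe sets (0.26, adjusted p = 0.0245). Another Sdc2 probe set was called higher in DMSO (0.24, adjusted p = 0.0396), and Itgb4 was called higher in CSA after quantile normalization (0.29, adjusted p = 0.0268). With centred arrays the changes were 0.45 for Itgb4 and -0.74 for Ilk in DMSO and 0.28 for Itgb1 and 0.25 for Vcl in CSA. The difference between the courses is the interaction given above, since the same 8 arrays enter both, and it was called for Itgb4, Tns1, Ilk and Vcl but not for Itgb1, Sdc2 (adjusted p = 0.258), Itgb3 (0.317), Itga9 (0.474) or Tln2 (0.589). The courses also share their day 3 and day 6 arrays with the CSA comparisons: the low DMSO day 3 arrays of Itgb4, Itgb5 and Tns1 enter both the higher value with CSA at day 3 and the larger rise in DMSO.

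For Tns1 a probe set other than the brightest went the other way in DMSO, by -0.32 (adjusted p = 0.0325), and the mean of its probe sets rose by 0.25 (adjusted p = 0.0348). It was 1 of 7 pairs of called probe sets of a member that disagreed in sign in DMSO, and 0 of 9 pairs did so in CSA.

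Itga9 fell in DMSO, by -1.58 ± 0.48 (adjusted p = 0.02004), from 7.09 and 7.52 at day 3 to 6.11 and 5.33 at day 6. Both day 6 arrays lay below both day 3 arrays. The call was not made without DMSO day 3 replicate 2 (-1.37, adjusted p = 0.118) or DMSO day 6 replicate 2 (-1.19, adjusted p = 0.133), or with the mean of its probe sets (-0.91, adjusted p = 0.0915), and its probe set outside the _s_at and _x_at classes gave -0.24 (adjusted p = 0.736). Tln2, talin 2, fell in CSA by -0.56 ± 0.14 (adjusted p = 0.0119), a call not made without CSA day 3 replicate 2 (adjusted p = 0.0754) or CSA day 6 replicate 2 (-0.38, adjusted p = 0.0912), and the mean of its probe sets gave 0.024 (adjusted p = 0.948).

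The remaining calls held with the deposited values but not under every scaling. In DMSO they were Itga6 (0.30), Itgav (0.27), Itgb1 (0.40), Sdc3 (0.46) and Pxn, paxillin (0.47), which with centred arrays gave 0.048, 0.017, 0.15, 0.21 and 0.22 with adjusted p of 0.745, 0.887, 0.235, 0.282 and 0.0690. Itga6 was not called on leaving out any 1 of the 4 DMSO arrays (adjusted p = 0.0601 to 0.172), Itgav without DMSO day 3 replicate 2 (0.130) or DMSO day 6 replicate 1 or 2 (0.0976 and 0.0620), Sdc3 without the same 3 arrays (0.164, 0.121 and 0.0599), and Itgb1 without DMSO day 6 replicate 2 (0.0521). In CSA they were, beside Itgb3, Tln1 (0.35), Pxn (0.41), Zyx (0.32) and Tns1 (0.27), which with centred arrays gave 0.13, 0.20, 0.10 and 0.054. Tns1 gave -0.076 with its probe sets averaged, as Itgav gave -0.063 in DMSO. Tln1 and Tns1 were not called on leaving out any 1 of the 4 CSA arrays (0.0649 to 0.155 and 0.0504 to 0.211), nor Zyx without CSA day 3 replicate 1 or 2 or CSA day 6 replicate 2 (0.0955, 0.0844 and 0.0962).

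The other 9 tested members were Itga2, Itga4, Itga5, Itga7, Itga8, Itgb6, Itgb8, Sdc1 and Fermt2. In the main fit none was called in either course on its brightest probe set. Alternatives called some of them on that probe set. Sdc1 was higher in DMSO after quantile normalization (0.35, adjusted p = 0.0185) and with a stricter filter (0.27, adjusted p = 0.0384). Fermt2 was lower with centred arrays, in DMSO (-0.32, adjusted p = 0.00230) and in CSA (-0.36, adjusted p = 0.00136). With a floor of 5 Itga8 was higher in CSA (1.24, adjusted p = 0.0405). A further probe set was called in the main fit for 3 of the 9. That of Sdc1 was higher in DMSO and in CSA (0.51 and 0.37, adjusted p = 0.00119 and 0.0115). That of Itga4 was higher in DMSO (1.11, adjusted p = 0.0301) and that of Fermt2 lower in DMSO (-0.26, adjusted p = 0.0207). On the brightest probe sets their values ran from -0.80 (Itgb6 in CSA) to 1.24 (Itga8 in CSA, adjusted p = 0.0645). Marker lists moved over the same days on the deposited scale: 11 of 12 epithelial markers rose in DMSO and 9 rose and 1 fell in CSA, and of 12 fibroblast markers 8 rose and 3 fell in DMSO and 10 rose and 1 fell in CSA. The summed fibroblast marker signal in DMSO went from 51475 to 54754 on the day 3 arrays to between 56043 and 57774 on the day 6 arrays, and in CSA from 48206 to 49174 to between 58962 and 61024; their part in the results was not tested.

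**Figure D3:**
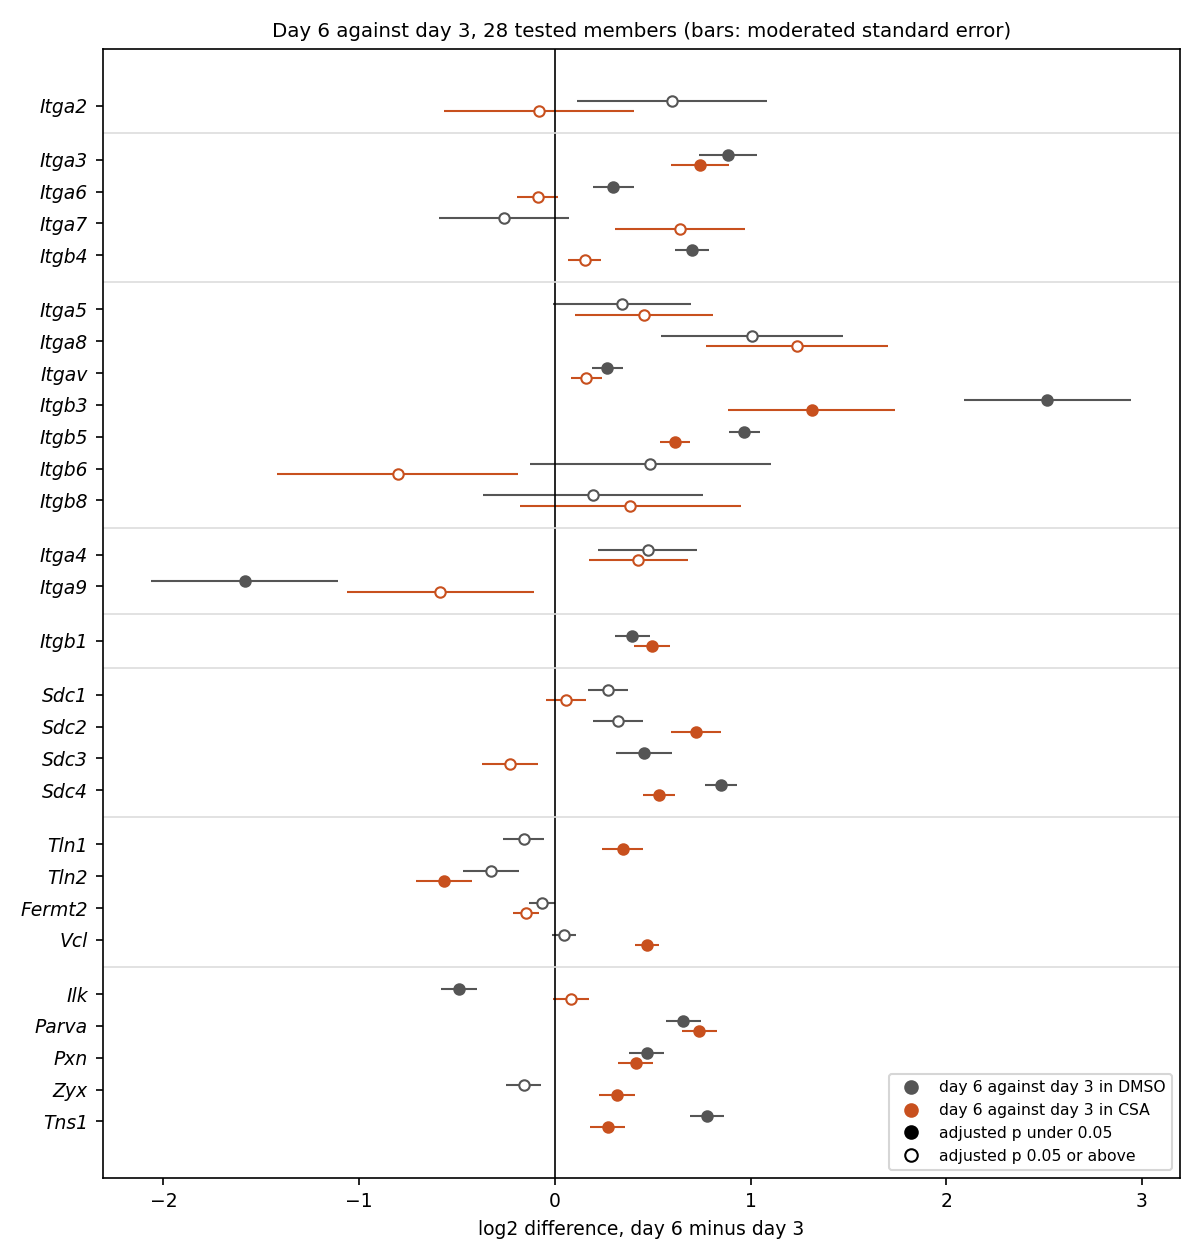
Log2 difference, day 6 minus day 3, for the 28 tested members in DMSO and in CSA on the deposited scale, with bars for the moderated standard error and filled points for an adjusted p under 0.05. Most filled points lie to the right of 0, with Itgb3 in DMSO farthest at 2.52, and the filled points to the left are Itga9 and Ilk in DMSO and Tln2 in CSA.

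The other genes of the pathway came from further lists. They held 68 focal adhesion and integrin signalling genes and 41 symbols of integrin and syndecan ligands, of which 63 and 33 were tested. The ligand symbols name Ccn1 also as Cyr61 and Ccn2 also as Ctgf. Both lists were chosen with earlier results of these data known, so their shares are descriptive only. The ligand list shares Col1a1, Col1a2 and Col3a1 with the fibroblast markers. At day 3, 8 signalling genes were higher and 3 lower with CSA (17.5%), against 12.7% of all genes tested, and 7 ligands were higher and 2 lower (27.3%). Ddr2, a collagen receptor tyrosine kinase outside the integrin family, read 9.76 on both DMSO arrays and 10.77 and 10.83 on the CSA arrays, a difference of 1.04 ± 0.08 (adjusted p = 3.76e-05). Ddr2 was also higher at day 6, by 0.94 ± 0.08 (adjusted p = 5.19e-05), and Kank4, a gene of the talin-binding KANK family, was lower at both days, by -0.69 ± 0.09 and -0.67 ± 0.09.

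The ligands named at day 3 are those with the smallest p. Fn1, fibronectin, the main RGD ligand, was higher by 0.71 ± 0.07 (adjusted p = 0.000206), and Lama3, a laminin alpha chain of the form that the integrin of alpha 6 and beta 4 binds, by 0.94 ± 0.12 (adjusted p = 0.000634). Col1a2 was higher by 0.70 on its brightest probe set and by 0.35 over the mean of its probe sets, where it was not called (adjusted p = 0.143), and Col6a1 was lower by -0.72 ± 0.09. Lpp, a zyxin family protein, gave 0.71 and Fermt3, the kindlin of blood cells, -0.62, but with the mean of their probe sets neither was called (adjusted p = 0.152 and 0.155), nor without the trend (0.0564 and 0.0527).

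At day 6 more of these genes differed: 13 signalling genes were higher and 8 lower with CSA (33.3%), and 5 ligands were higher and 10 lower (45.5%), against 12.5% of all genes tested (6.41% higher and 6.11% lower). Fbln5, fibulin 5, an elastic fibre protein with an RGD sequence, was higher by 1.26 ± 0.10 (adjusted p = 2.69e-05), and Cav1, caveolin 1, by 0.59 ± 0.07. Npnt, nephronectin, the ligand of the integrin of alpha 8 and beta 1, read 11.26 and 11.29 with DMSO and 10.40 and 10.42 with CSA, and was lower by -0.87 ± 0.09, although over the mean of its probe sets the call was lost (-0.55, adjusted p = 0.0852). Col3a1 was lower by -0.85 ± 0.08, and Postn, periostin, by -2.57 ± 0.28. Fermt3 was lower by -0.90 ± 0.09, and by -0.56 over the mean of its probe sets (adjusted p = 0.0566).

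The change in the CSA difference between days was called for 7 signalling genes, 5 higher and 2 lower (11.1%), and for 9 ligands, 1 higher and 8 lower (27.3%), against 5.79% of all genes tested (2.36% and 3.43%). Among signalling genes it was -0.67 ± 0.10 for Vasp, which promotes actin assembly at adhesions, -0.65 ± 0.12 for the kinase Fyn, 0.48 ± 0.09 for Actn1, alpha-actinin 1, and 0.60 ± 0.12 for the tetraspanin Cd151. Among ligands it was -0.88 ± 0.09 for Col1a2, -1.29 ± 0.16 for Lama3, -3.33 ± 0.40 for Postn and 0.94 ± 0.14 for Fbln5. None of these 8 was called without the intensity trend (adjusted p = 0.0983 to 0.2002). With a gene's probe sets averaged Actn1, Cd151 and Col1a2 were not called (0.18, 1.03 and -0.41, with adjusted p of 0.463, 0.0678 and 0.271). The calls of Actn1, Cd151 and Fyn were also lost on leaving out CSA day 3 replicate 2 (0.0890, 0.0661 and 0.0671) or DMSO day 6 replicate 2 (0.0770, 0.0838 and 0.0703), that of Actn1 or Cd151 without CSA day 6 replicate 2 (0.05004 and 0.0619), and that of Cd151 or Fyn without CSA day 3 replicate 1 (0.0889 and 0.0577).

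Over the day course, again on the deposited scale, 24 of 33 ligands rose and 2 fell in DMSO (78.8% called), and 22 rose and 3 fell in CSA (75.8%), against 45.7% and 36.1% of all genes tested (26.1% and 20.2% higher). Fn1 rose by 2.64 ± 0.07 in DMSO and 2.11 ± 0.07 in CSA, from 10.67 and 10.50 on the DMSO day 3 arrays to 13.20 and 13.25 on the DMSO day 6 arrays. Col1a2 rose by 2.10 and 1.22, Col3a1 by 2.22 and 1.68 and Lama3 by 2.44 and 1.15 in DMSO and CSA, and Thbs1, thrombospondin 1, by 1.42 in CSA. Signalling genes moved both ways, with 20 higher and 13 lower in DMSO (52.4%) and 18 and 9 in CSA (42.9%), shares nearer to those of all genes tested. Ddr2 rose by 1.26 and 1.16, Lpp by 1.22 in DMSO and the endocytic adaptor Dab2 by 1.04 in CSA, while Pdlim1 fell by 0.92 and 0.72, Actn1 by 0.74 in DMSO and Itgb1bp1, which encodes an antagonist of beta 1 integrin activation, by 0.80 in CSA.

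**Figure D4:**
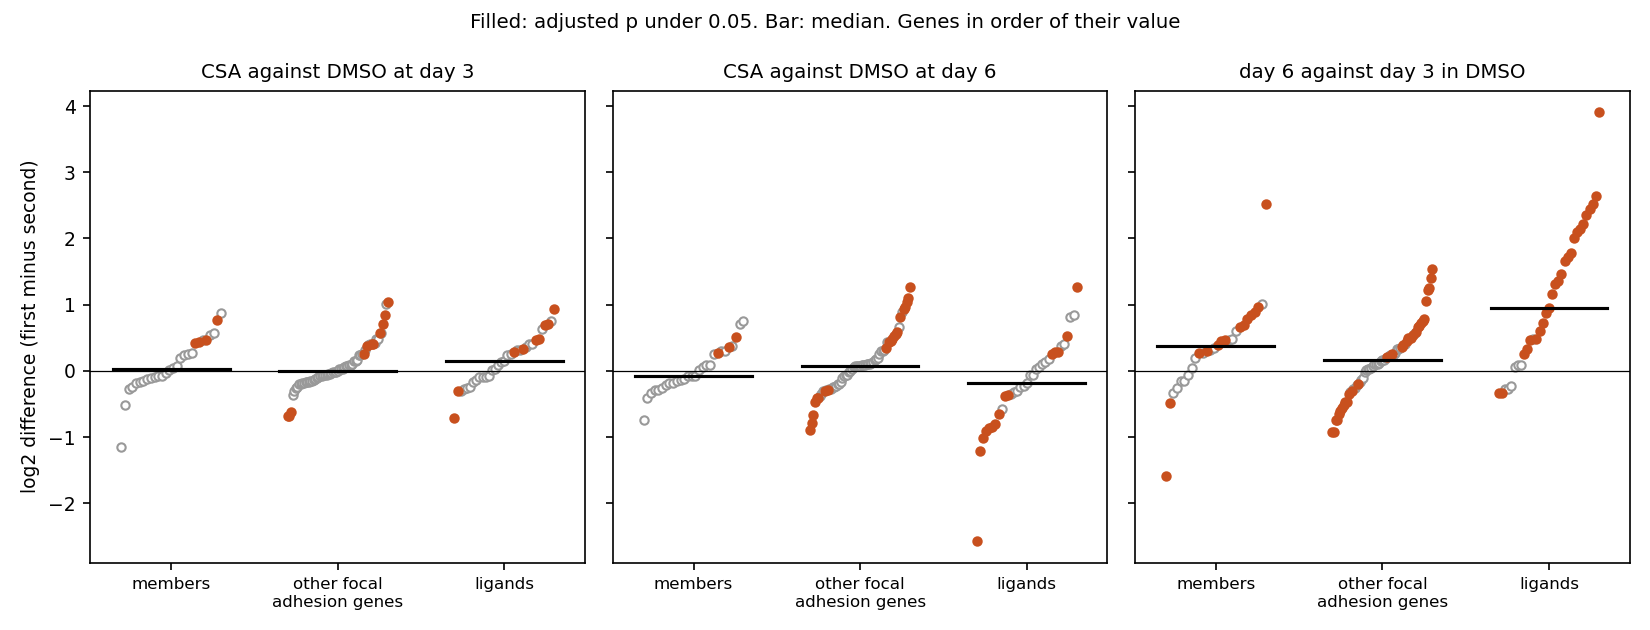
Log2 differences of all tested members, other focal adhesion and signalling genes, and ligands, with a point per gene in order of its value, filled for an adjusted p under 0.05, and a bar for the list's median, with 1 panel per day for the CSA difference and 1 for day 6 against day 3 in DMSO. For the CSA difference the ligand median lies at 0.15 at day 3 and -0.18 at day 6, against member medians of 0.03 and -0.07. For the day course in DMSO it lies at 0.96, against 0.37 for the members.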

How the data were processed

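The authors deposited log2 signals for 45037 probe sets on 8 Affymetrix 3' arrays; MAS5 is named, with no version, in the submitters' processing notes, and no source used here gives scan batches. The deposited values were used without further normalization. Probe sets with a mean log2 signal at or above the 40th percentile (5.37) were kept, and 27022 were fitted with limma 3.58.1 (R 4.3.3; lmFit, and eBayes with an intensity trend), with 1 mean per group and 4 residual degrees of freedom; p-values are two-sided and Benjamini-Hochberg adjusted over all probe sets tested. Genes were named from the platform annotation: 34945 probe sets had 1 symbol, 932 several, and 9160 were not listed; all 31 members with a probe set matched a current gene.

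The members and lists were chosen with earlier results of these data known. Array values are given for members called for CSA or its interaction with day, for Itgb1, and for members called with a change of at least 1 unit between days (Sdc4 was added after its values were seen); of each pathway list up to 4 genes per contrast with the smallest p are named. Alternatives were quantile normalization, centring, other filters, a pseudocount of 32, a floor of 5, no intensity trend, other choices of probe set, fits on fewer arrays, a replicate block, and leaving out each array.

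With 2 arrays per group the precision is limited, and depth does not apply to arrays.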

Additional observations from a re-analysis of the deposited data

Results flagged for a closer look

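The difference between CSA and DMSO changed from day 3 to day 6 for 4 members, by the interaction test of the limma fit over all 8 arrays. Itgb4 changed by -0.55 (adjusted p = 0.0303) and Tns1 by -0.51 (adjusted p = 0.0455), both smaller at day 6. Vcl changed by 0.42 (adjusted p = 0.0229) and Ilk by 0.57 (adjusted p = 0.0342), both from below 0 to above it, though neither day 3 difference was called. A second Vcl probe set lay above 0 at both days, and its change was not called (0.22, adjusted p = 0.763). The 4 calls are 14.3% of the tested members, against 5.79% of all genes tested, a comparison that is descriptive only. None was made without the intensity trend, and of 18 alternatives the call was lost in 13 for Tns1, 8 for Ilk, 7 for Itgb4 and 7 for Vcl, most of them fits that left out 1 array.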

How the results depend on the processing

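Over 38 member calls and 19 alternative fits, 455 of 579 values kept the direction and the call, 121 lost the call and 3 reversed. The reversals came with a gene's probe sets averaged: Itgav gave -0.063 for the day course in DMSO, and Tln2 0.024 and Tns1 -0.076 for that in CSA. The same setting called 2 members for CSA at day 3, 1 at day 6, 2 for the interaction and 7 for the CSA day course, and 1456, 1491, 655, 4098 and 5326 features (day 3, day 6, interaction, CSA course and DMSO course), which are gene means here and so fewer than the 2588, 2612, 1144, 8358 and 10970 probe sets called otherwise. Without the intensity trend limma called 0 members at day 3, at day 6 and for the interaction, where 7, 7 and 8 had an unadjusted p under 0.05, and it called 442, 694 and 0 probe sets; for the interaction 4287 of the 27022 tested had an unadjusted p under 0.05. Leaving out 1 array gave 0 to 4 members called at day 3, 1 to 4 at day 6, 0 to 3 for the interaction, 9 to 14 for the DMSO course and 8 to 12 for the CSA course, and 1076 to 2008, 1112 to 1717, 390 to 994, 8106 to 9380 and 5417 to 6068 probe sets in the same order; an array alone in its group was assumed to vary like the others. Same-numbered arrays showed no broad shared deviation, with correlations of -0.0034 to 0.034 between their deviations from the group means. Such correlations cannot show whether same-numbered arrays came from the same cells. A replicate block called 4, 3, 4, 16 and 13 members (day 3, day 6, interaction, DMSO course and CSA course) and 2724, 2742, 1208, 11131 and 8516 probe sets. Signal over background limits the dimmer members, such as Itgb6, Itgb8 and Itga2, whose standard errors were 0.62, 0.56 and 0.49.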

Other observations

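The members below the filter were read without it. Itgb7, the beta subunit of the gut-homing integrin of lymphocytes, read 4.39 and 2.41 with DMSO and 5.02 and 5.50 with CSA at day 3, and 7.30 and 7.05 with DMSO and 2.52 and 3.81 with CSA at day 6. Both DMSO day 6 arrays were above all other arrays. In the limma fit over all 45037 probe sets its difference at day 6 was -4.01 (adjusted p = 0.0288), its change between days in DMSO 3.77 (adjusted p = 0.0106) and the interaction -5.86 (adjusted p = 0.0444). Its mean over the 8 arrays, 4.75, lay below the filter, so it is no call of the main comparisons. Summed leukocyte marker signals lay between 796 and 1099 on the 8 arrays, and none of the 7 tested leukocyte markers was called for CSA at either day; with an unadjusted p under 0.05 there was 1 at day 3 and 0 at day 6.

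Itgb2, the beta subunit shared by leukocyte integrins, read 5.82 and 5.65 with DMSO and 5.74 and 5.50 with CSA at day 3, and 4.88 and 4.39 with DMSO and 2.51 and 4.12 with CSA at day 6, and was called in none of the 5 comparisons without the filter; its change between days in CSA was -2.31 (adjusted p = 0.0929). Itga1, a collagen receptor subunit, ranged from 2.43 to 6.12 and was called in none of them either.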
